A study of Rattus norvegicus with 4 samples.

Results

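The miR-26 family was measured by 4 of the 761 rat microRNA (miRNA) probes on the array, those named rno-miR-26a or rno-miR-26b with a 5p or 3p arm. The members were chosen by name, and all 4 were tested. They were compared between LSECs, the fenestrated endothelial cells that line the liver sinusoids, and hepatocytes, the parenchymal cells of the liver. Both were primary cells taken from livers of male Sprague-Dawley rats aged 10 weeks and left untreated, with 2 samples of each cell type and 1 single-colour array per sample. Nothing in the labels ties the samples to separate or pooled animals or gives the purity of the isolates, so each p-value below measures only the spread between these samples, which may be technical. The series was designed to profile miRNAs in these cell types.

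A miRNA is cut from a hairpin precursor, whose 5p and 3p arms can each be loaded into a silencing complex, and it represses messenger RNAs that pair with its seed, bases 2 to 8. In vertebrates the miR-26 genes lie within genes of the CTDSP family, which encode small phosphatases of the RNA polymerase II C-terminal domain, and the 5p arm is the abundant product. In human and mouse work miR-26a-5p represses the histone methyltransferase EZH2 and G1 cyclins, and it is known in liver for its low level in hepatocellular carcinoma and for its effect on hepatic glucose and lipid metabolism.

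The mature sequences are shown because the near identity of the 5p arms bears on how far their probes can be read apart. All 4 names matched RefSeq entries on build GRCr8. Each sequence runs 5′ to 3′ with the seed in capitals.
rno-miR-26a-5p: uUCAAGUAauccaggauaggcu
rno-miR-26b-5p: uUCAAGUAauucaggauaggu
rno-miR-26a-3p: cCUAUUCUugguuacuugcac
rno-miR-26b-3p: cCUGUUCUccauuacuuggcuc
The 5p arms share their seed, and 0 other mature rat sequences in the RefSeq table carry it. Of the 761 probe names on the array, 685 matched that table. Whether an unmatched probe shares the seed or is near in sequence was not tested. Over the 21 bases they have in common they are identical at 19, and the substitutions from miR-26a-5p to miR-26b-5p are C11U and C21U, counted from 1 at the 5′ end. The nearest sequence outside the family among the array's matched miRNAs shares 12 bases with miR-26a-5p and 14 with miR-26b-5p in an ungapped alignment. Cross-hybridisation between the 5p probes was not tested. The 3p arms differ in their seeds and are identical at 14 of 21 bases.

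The hairpins below carry the mature arms in capitals and show that each 3p arm comes from the same precursor as its 5p arm.
Mir26a: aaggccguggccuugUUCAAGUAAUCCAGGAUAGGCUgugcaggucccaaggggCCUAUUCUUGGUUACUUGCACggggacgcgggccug
Mir26b: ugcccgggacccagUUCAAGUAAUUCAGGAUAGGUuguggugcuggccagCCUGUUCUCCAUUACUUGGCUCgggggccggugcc
In GRCr8, Mir26a lies at chr8:127633048-127633137 on the plus strand, within the span of Ctdspl, and Mir26b lies at chr9:83425709-83425793 on the plus strand, within the span of Ctdsp1; exon or intron was not resolved here. Both host genes are on the plus strand as well.

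The arrays separated as their labels say. The 4 hepatocyte marker probes (both arms of miR-122, miR-192-5p and miR-194-5p) summed to 132.7 to 157.2 intensity units above the blank spots in LSECs and to 25870 to 46510 in hepatocytes, and the arms of miR-126a, an endothelial miRNA, summed to 49370 to 50620 in LSECs and to 24.64 to 66.48 in hepatocytes. Of 8 leukocyte and Kupffer cell probes 7 were called higher in LSECs, against 18.6% of all miRNAs tested. The 8 summed to 4254 to 4920 in LSECs and to 52.4 to 74.95 in hepatocytes. In hepatocytes miR-155-5p was not above the detection limit, and miR-146a-5p, miR-511-3p and miR-511-5p were above it on array 2 only. These last probes and miR-155-5p entered the test through the LSEC arrays alone. All 5 stellate and mesenchymal probes were called higher in LSECs, against the same 18.6%. They summed to 1393 to 1613 in LSECs and to 46.91 to 87.13 in hepatocytes, where miR-199a-3p was not above that limit. That probe too was tested through the LSEC arrays alone. Of 3 erythroid probes 2 were tested, and 1 of these was called higher in hepatocytes, against 18.4% of all miRNAs tested. Whether these signals came from other cells or from the LSECs themselves was not tested. Nor was any part of other cells in the miR-26 signal of the LSEC samples.

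Both 5p arms were bright in both cell types. The miR-26a-5p probe read 6251 and 4034 units above the blanks in LSECs and 1807 and 2940 units in hepatocytes. For miR-26b-5p, the same signal was 1696 and 1950 units in LSECs and 756.7 and 1117 units in hepatocytes. Before any scaling, then, both LSEC arrays lay above both hepatocyte arrays for each 5p arm. The detection limit, the mean of the blank spots plus 2 SD, stood at 73.2 and 74.2 units on the LSEC arrays and 83 and 97.4 units on the hepatocyte arrays, with the blanks included.

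The authors' deposited table gives each probe as an intensity scaled per array. In it, miR-26a-5p stood at 9712.4 and 5690.3 in LSECs and at 4349.9 and 4591.2 in hepatocytes, a ratio of means of 1.72. For miR-26b-5p, the authors' values were 2635.7 and 2750.3 in LSECs and 1821.6 and 1744 in hepatocytes, a ratio of 1.51. The groups did not overlap for either arm on this scale, but the LSEC replicates of miR-26a-5p lay further apart than LSEC array 2 lay from the hepatocyte arrays. Over the 482 miRNAs listed on all 4 arrays, the median ratio was 1.2.

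Quantile normalization forces the same spread of values onto each array, and after it the 5p arms differed in their test. The normalized log2 value of miR-26a-5p was 12.20 and 11.56 in LSECs and 12.06 and 11.82 in hepatocytes, so the hepatocyte values fell between those of the LSEC arrays. Its LSEC minus hepatocyte difference was -0.06 ± 0.25 (SE, n = 2 arrays per cell type), with a 95% interval of -0.75 to 0.63 and an adjusted p = 0.871 in limma. The interval leaves room for a change in either direction. For miR-26b-5p the normalized log2 value was 10.24 and 10.33 in LSECs and 10.90 and 10.76 in hepatocytes, without overlap. Its difference was -0.54 ± 0.07 (SE, n = 2 arrays per cell type; 95% interval -0.74 to -0.35), a level 1.46-fold lower in LSECs, with an adjusted p = 0.00754 in limma.

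**Figure D1:**
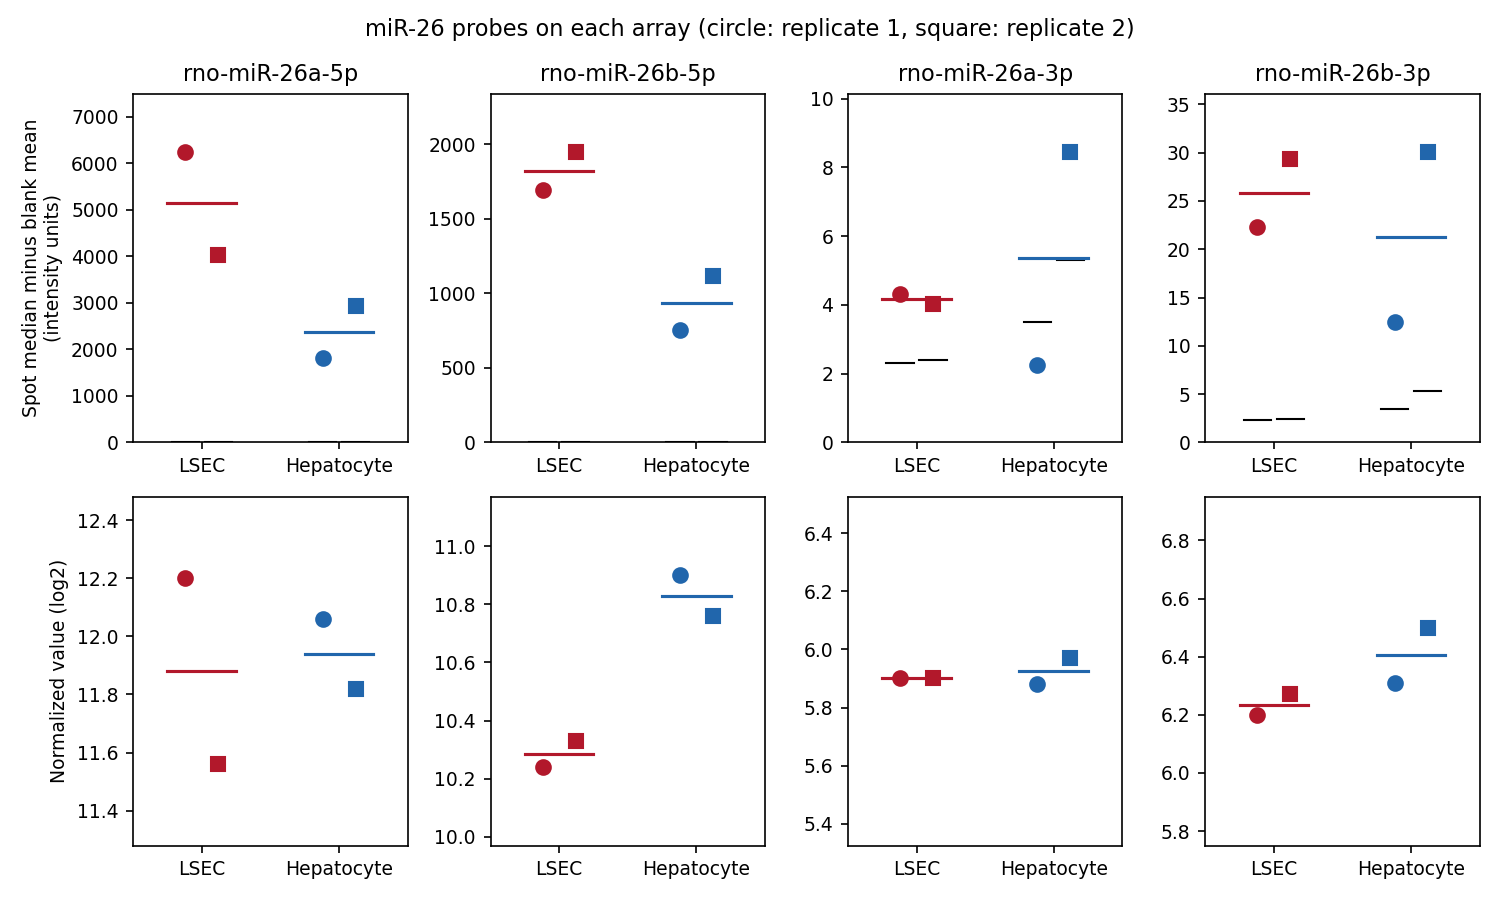
Each miR-26 probe on the 2 LSEC arrays (red) and the 2 hepatocyte arrays (blue), as signal above the blanks on a linear axis (top; short black lines mark the detection limit of each array) and as quantile-normalized log2 value (bottom); coloured lines are group means. In the top row both 5p arms are higher in LSECs, and in the bottom row miR-26b-5p is lower in LSECs while the values of miR-26a-5p overlap.

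Of the 4 family probes, 1 was thus called at an adjusted p under 0.05, against 37.0% of the 652 miRNAs tested. No family probe was called higher in LSECs, where 18.6% of those tested were, and miR-26b-5p was called higher in hepatocytes, as were 18.4%. LSEC and hepatocyte arrays were free of overlap for 71.3% of those tested, and this held for miR-26b-5p and miR-26b-3p in the family. The median difference was -0.12 over the 4 probes and 0 over all tested, and 23.5% of the miRNAs tested had a larger difference in size than miR-26b-5p. The call of miR-26b-5p ended without LSEC array 1 (-0.56, adjusted p = 0.0960 in limma) and without LSEC array 2 (-0.64, adjusted p = 0.0741), and these fits assume that the lone LSEC array varies like the others.

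The sign of the difference of both 5p arms turned with the scaling between arrays. For miR-26b-5p the difference was -0.76 with cyclic loess and -0.07 with the 75th percentile, but 0.40 with the median, 0.60 in the authors' values, 0.94 without scaling and 1.83 with the spike controls, and it passed the test in limma in each of these except the 75th percentile. For miR-26a-5p it was -0.88 with cyclic loess, 0.07 with the 75th percentile, 0.55 with the median, 0.73 in the authors' values, 1.10 without scaling and 2.01 with the spikes. Only the last 2 of these passed for miR-26a-5p (adjusted p = 0.00926 and 0.000430 in limma). The whole array moved too: the median over all miRNAs fitted was -0.21 with the 75th percentile, 0.28 in the authors' values and 0.27 with the spikes, and miR-26b-5p lay above that median under each of these. Quantile normalization put 50.2% of all calls on the LSEC side, against 24.1% with the 75th percentile, 63.8% in the authors' values, 84.7% without scaling and 95.4% with the spikes. Fewer cells of a type and less RNA per cell cannot be told apart in such samples, and no scaling here settles whether the amount of miR-26b-5p per cell was higher or lower in LSECs.

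**Figure D2:**
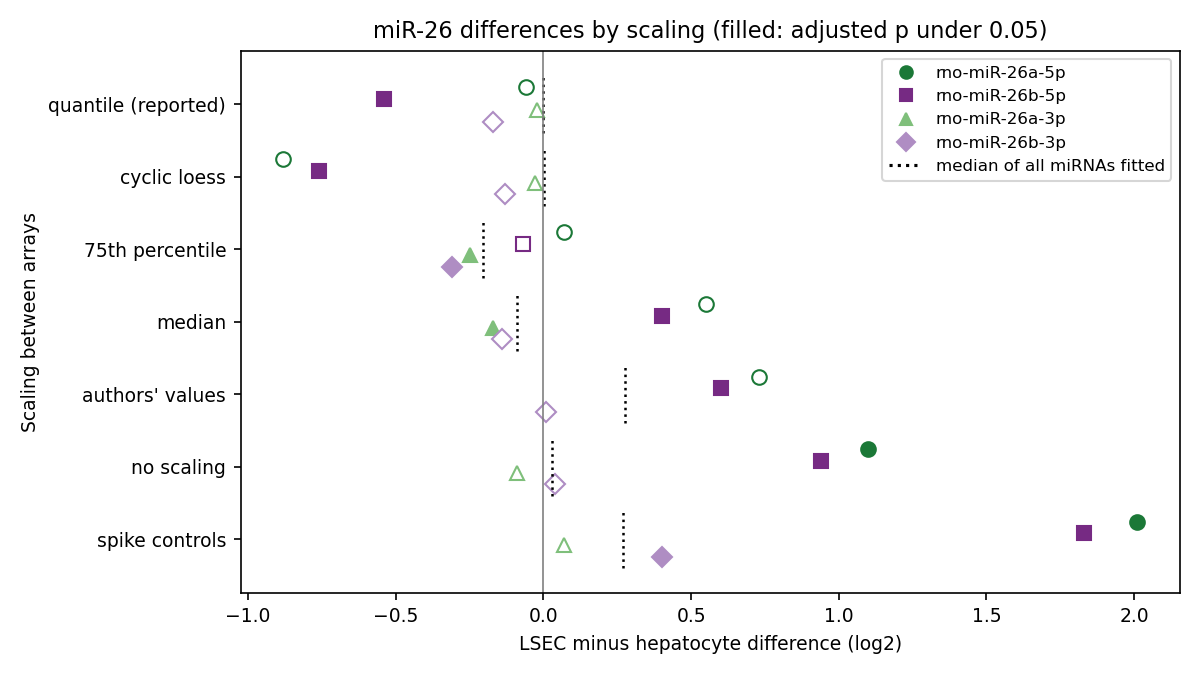
LSEC minus hepatocyte differences (log2, horizontal axis) of the 4 miR-26 probes under 7 ways of scaling the arrays; filled symbols passed an adjusted p under 0.05 and the dotted line is the median of all miRNAs fitted. The 5p arms run from below 0 with cyclic loess to 2.01 and 1.83 with the spike controls, while the 3p arms stay between -0.31 and 0.40.

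A ratio between 2 probes on the same array does not depend on a scaling factor for that array, though it is no ratio of molecules, because probes differ in brightness. The signal of miR-26a-5p over that of miR-26b-5p was 3.68 and 2.07 in LSECs and 2.39 and 2.63 in hepatocytes. The hepatocyte values lay between the LSEC values, so this ratio did not separate the cell types. On the quantile-normalized log2 scale the same difference between probes was 1.95 and 1.22 in LSECs and 1.16 and 1.06 in hepatocytes, which gives an LSEC minus hepatocyte difference of 0.48 (exact permutation test, two-sided p = 0.333, the smallest that 2 against 2 arrays allow). It was 0.18 without LSEC array 1 and 0.94 without LSEC array 2. Under the other scalings it was smaller, at 0.16 without scaling, 0.15 with the median, 0.14 with the 75th percentile, 0.19 with the spikes, 0.14 in the authors' values and -0.12 with cyclic loess. A different response of miR-26a-5p and miR-26b-5p was therefore not shown, although only miR-26b-5p passed the test.

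The 3p arms, the minor products of these hairpins, were dim. The signal of miR-26b-3p above the blanks was 22.29 and 29.30 units in LSECs and 12.46 and 30.11 units in hepatocytes. These ranges overlapped, and the fitted difference was -0.17 ± 0.08 (adjusted p = 0.185 in limma). For miR-26a-3p the signal was 4.32 and 4.03 units in LSECs and 2.26 and 8.46 units in hepatocytes, where it was detected on array 2 but not on array 1. Its difference of -0.02 ± 0.05 (adjusted p = 0.791 in limma) is on a log2(intensity + 50) scale, which shrinks differences between signals this small. An alternative by the 75th percentile called both 3p arms lower in LSECs (-0.25 and -0.31 for miR-26a-3p and miR-26b-3p), where the median miRNA stood at -0.21. The median called miR-26a-3p lower in LSECs too (-0.17, adjusted p = 0.0430 in limma), while the spikes called miR-26b-3p higher in LSECs (0.40, adjusted p = 0.00563). With plain subtraction of the blank mean, which has no offset, the difference of miR-26b-3p was -0.54 (adjusted p = 0.205 in limma). Measured in SDs of the blank spots, miR-26a-3p stood 3.75 and 3.25 above their mean in LSECs and 1.32 and 3.22 above it in hepatocytes.

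Arm ratios gave no stable difference either. The signal of miR-26b-5p over that of miR-26b-3p was 76.1 and 66.6 in LSECs and 60.7 and 37.1 in hepatocytes, higher on both LSEC arrays. The fit of 5p minus 3p over 213 hairpins, after the offset and quantile normalization, gave the other direction for miR-26b, at -0.38 ± 0.12 (adjusted p = 0.0493 in limma), where 54.5% of hairpins were called. That call ended with an offset of 16 (-0.27, adjusted p = 0.243), and in the authors' values, which carry no offset, the difference was 0.59 (adjusted p = 0.167). It also ended without LSEC array 1 (-0.44, adjusted p = 0.144 in limma) and without hepatocyte array 1 (-0.16, adjusted p = 0.103). Across scalings the miR-26b arm difference was called in both directions in limma: -0.63 with cyclic loess (adjusted p = 0.00394), but 0.90 without scaling, 0.54 with the median and 1.43 with the spikes (adjusted p = 0.00131, 0.0109 and 0.000151). For miR-26a the arm ratio was 1450 and 1000 in LSECs and 348 on hepatocyte array 2, with no value on hepatocyte array 1, where the 3p arm was not detected. Its fitted difference was -0.04 ± 0.23 (adjusted p = 0.903 in limma). It too was called in both directions in limma, at -0.85 with cyclic loess (adjusted p = 0.0420) and at 1.2 without scaling, 0.72 with the median and 1.94 with the spikes (adjusted p = 0.0212, 0.0412 and 0.000636). Under the same scalings miR-26a-5p alone differed by -0.88, 1.10, 0.55 and 2.01, and miR-26b-5p alone by -0.76, 0.94, 0.40 and 1.83. The dim 3p arms stayed near the offset, so these arm calls largely repeat the 5p differences and are no separate result.

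**Figure D3:**
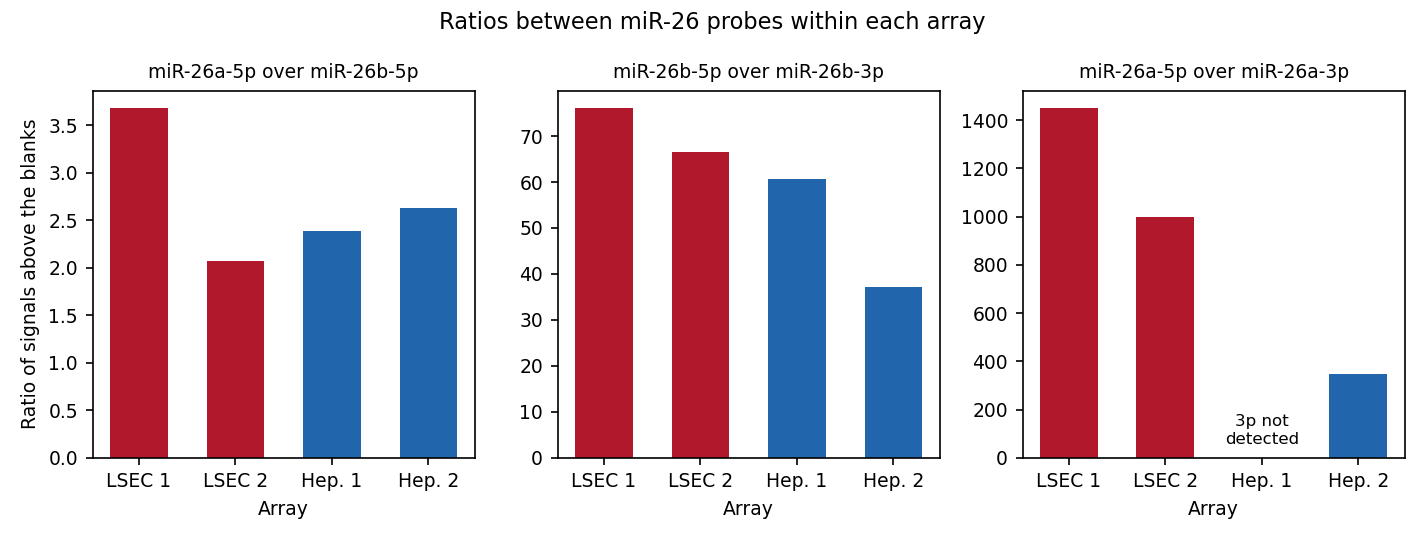
Ratios of signals above the blanks between miR-26 probes, 1 bar per array (LSEC red, hepatocyte blue), each panel on its own linear axis from 0. LSEC array 1 has the highest miR-26a-5p over miR-26b-5p ratio, at 3.68, and LSEC array 2 the lowest, at 2.07; hepatocyte array 1 has no miR-26a arm ratio.

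The LSEC to hepatocyte ratios of the miR-26 5p arms were above those of most miRNAs listed on all 4 arrays. They were below those of most members of 3 other broadly expressed families. The comparison covered 17 probes: 9 of let-7 and miR-98, which repress growth regulators such as RAS and HMGA2, 5 of miR-30 and 3 of miR-29, which represses collagens. In the authors' values their ratios ran from 1.51 for miR-30b-5p to 11.1 for miR-29b-3p, with a median of 2.77. The ratio of 1.51 for miR-26b-5p was exceeded by 16 of the 17, and the ratio of 1.72 for miR-26a-5p by 14. Over all 482 miRNAs listed on every array, 40.1% had a higher ratio than miR-26b-5p and 34% a higher ratio than miR-26a-5p. Within arrays, miR-26b-5p over the other miRNA was lower on both LSEC arrays than on both hepatocyte arrays for 15 of the 17 and overlapped for 2, against 32.8% of 479 miRNAs outside the family. For miR-26a-5p this held for 13 of the 17, against 22.8%, with 4 overlapping. A single scaling factor per array cancels in these ratios, and no test was made of them. The families were set beside miR-26 with their values known.

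**Figure D4:**
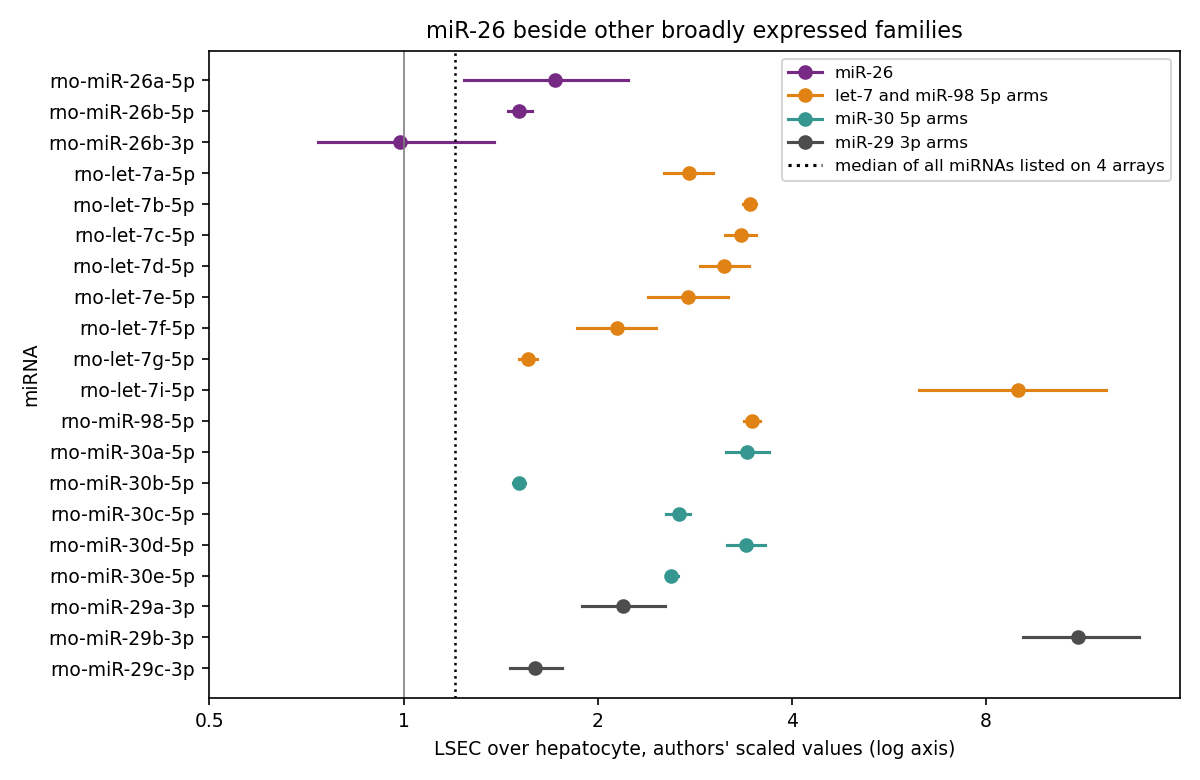
LSEC over hepatocyte ratio of the authors' scaled values (log axis) for 3 miR-26 probes and 17 probes of other families; points are ratios of group means, and lines run from the lowest to the highest ratio of an LSEC to a hepatocyte array. The points for miR-26b-5p and miR-26a-5p, at 1.51 and 1.72, lie right of the dotted median of all listed miRNAs (1.2) and left of most let-7, miR-30 and miR-29 probes.

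The same families in the limma fit after quantile normalization had more calls on the LSEC side. Among all miRNAs tested, 18.6% were called higher in LSECs and 18.4% higher in hepatocytes. Of the let-7 and miR-98 arms, 7 of 9 were called higher in LSECs and 1 higher in hepatocytes, with a median difference of 0.66. The largest were let-7i-5p at 1.81 ± 0.24 and let-7c-5p at 0.76 ± 0.06, and the exception was let-7g-5p at -0.73 ± 0.05. Of the miR-30 arms 3 of 5 were called higher in LSECs (miR-30a-5p 0.47, miR-30c-5p 0.39 and miR-30d-5p 0.51) and miR-30b-5p higher in hepatocytes (-0.36), while miR-30e-5p differed by 0.04. Of the miR-29 arms, miR-29b-3p was called higher in LSECs (2.17) and miR-29c-3p higher in hepatocytes (-0.63), while miR-29a-3p differed by 0.27 with no call. In let-7g-5p, miR-30b-5p and miR-29c-3p, as in miR-26b-5p, the difference turned to the LSEC side with the median, without scaling, with the spikes and in the authors' values. With cyclic loess 3 let-7 arms were called higher in LSECs and 2 higher in hepatocytes, against 103 and 112 of all 652 miRNAs. The miR-29 median turned to -0.36 there. Leaving out any array gave fewer LSEC-side calls in let-7 and miR-30, and leaving out either LSEC array did so in miR-29. LSEC-side calls over all miRNAs also fell whenever an array was left out. Median differences then ran from 0.61 to 0.69 for let-7, 0.37 to 0.41 for miR-30 and 0.11 to 0.38 for miR-29. With plain subtraction of the blank mean 4 let-7 arms and 0 miR-30 arms were called higher in LSECs, against 112 of all 652 miRNAs. Cross-hybridisation among the probes of these families was not tested either, so their calls may not be independent.

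Other miRNAs known from human and mouse work to repress EZH2 did not move as a block. Of 12 tested, 7 were called higher in LSECs and 1 higher in hepatocytes in limma, against 18.6% and 18.4% of all miRNAs tested. Their median difference was 0.45, and 6 of the 7 are let-7 arms. The hepatocyte call was miR-101b-3p, at -4.09 ± 0.07, with authors' values of 72.5 and 92.8 in LSECs and 1625.5 and 1659.4 in hepatocytes. Apart from let-7, miR-214-3p was called higher in LSECs at 0.98 ± 0.07, and it also stands in the mesenchymal list. The 12 do not include let-7g-5p (-0.73, called higher in hepatocytes) or miR-98-5p (0.66, called higher in LSECs) of the let-7 and miR-98 list. Leaving out any array gave fewer LSEC-side calls among the 12, as it did over all miRNAs, with median differences of 0.41 to 0.46. With plain subtraction of the blank mean 4 were called higher in LSECs, against 112 of all 652 miRNAs. With cyclic loess 3 were called in each direction, against 103 higher in LSECs and 112 higher in hepatocytes of all 652. The EZH2 messenger RNA was not measured on these arrays.

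Among the 479 other miRNAs detected on all 4 arrays, the patterns nearest to miR-26a-5p, by Euclidean distance between normalized log2 values centred on each probe's mean, were those of miR-25-3p (0.297), miR-30a-3p (0.337) and miR-466b-5p (0.373). The nearest to miR-26b-5p were those of miR-92a-3p (0.071), miR-19a-3p (0.087) and miR-540-5p (0.098). The 5p arms themselves lay 0.708 apart, with 328 miRNAs nearer to miR-26a-5p and 322 nearer to miR-26b-5p. These neighbours also depended on the scaling: under the 6 other scalings 0 to 2 of the 3 were kept for miR-26a-5p and 0 for miR-26b-5p.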

How the data were processed

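The deposited scanner tables give each spot's median Cy5 intensity, linear and with background included. Per the file headers, scans taken at 3 gains were joined by least squares. The authors' deposited table of processed intensity values equals the spot median minus the blank mean, times a factor per array that sets the median of the listed miRNAs at 25. This was worked out from the values; how the authors describe the scale is not given in the sources used here.

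In R 4.3.3 with limma 3.58.1, normexp (offset of 50) was fitted on all 3200 spots, and the 761 miRNA probes were quantile-normalized and put on a log2 scale. The background column in the deposited scanner tables was left out, since it followed the spot's own brightness (r = 0.964 to 0.982 across probes on the log2 scale). Probes above the blank mean plus 2 SD (blanks trimmed by 5% at each end) on both arrays of a cell type were tested, 652 in all, with lmFit and eBayes and Benjamini-Hochberg adjustment over all of them. The number of arrays limits the precision. Standard errors are of the fitted log2 difference.

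The members, lists and tests were chosen with earlier results of these data known. The text names all family probes, miRNAs of matched sequence that share their seed, and the 3 nearest patterns per 5p arm. It also names cell type markers and the leading called members of each comparison list (all members of lists of 5 or fewer). Other single miRNAs were chosen after their values were seen. Alternatives changed the background correction, scaling, filter, limma options, replicate block and each array in turn. The ratios to other families and the nearest patterns under other scalings were added after seeing the data. In data simulated with the fitted spread (20 runs, 652 probes), limma called 87.7% of log2 changes of 0.5 and 97.7% of changes of 1. The spread was that over all probes, and the changes were added after normalization. These rates therefore leave out the uncertainty from scaling and do not apply to miR-26a-5p, whose SE was 0.25.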

Additional observations from a re-analysis of the deposited data

How the results depend on the processing

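Scaling moved the family's results most, and the cause was not tested. Without scaling, the differences of miR-26a-5p, miR-26b-5p and miR-26b-3p were 1.10, 0.94 and 0.04; with the median those of the 5p arms were 0.55 and 0.40 and that of miR-26a-3p -0.17 (called); with the 75th percentile the 4 were 0.07 and -0.07 for the 5p arms of miR-26a and miR-26b, and -0.25 and -0.31 (both called) for the 3p arms. With the spike controls they were 2.01 and 1.83 for the 5p arms and 0.07 and 0.40 (the second called) for the 3p arms, and in the authors' values 0.73, 0.60 and 0.01, with no value for miR-26a-3p, which is not listed on hepatocyte array 1. Family probes called higher in LSECs numbered 2 without scaling, 1 with the median, 3 with the spikes and 1 in the authors' values. Those called higher in hepatocytes numbered 0, 1, 0 and 0, and 2 with the 75th percentile. Over all miRNAs fitted, 150, 153 and 433 of 652 and 196 of 482 were called higher in LSECs, in that order. The hepatocyte side had 27, 222, 21 and 111, and 368 of 652 with the 75th percentile. Plain subtraction of the blank mean ended the miR-26b-5p call (-0.57, adjusted p = 0.0662 in limma), leaving 0 family calls, against 233 of all 652 miRNAs called. Where the offset was added, the dim 3p arms stayed near it, so arm differences across scalings largely repeat those of the 5p arms. The miR-26a arm difference was 0.10 with plain subtraction and 0.33 with the 75th percentile. It was called in both directions: 1.2 without scaling, 0.72 with the median, 1.94 with the spikes and -0.85 with cyclic loess. That of miR-26b was -0.02 with plain subtraction, -0.27 with an offset of 16, 0.24 with the 75th percentile and 0.59 in the authors' values, none of them called, and called at 0.90 without scaling, 0.54 with the median, 1.43 with the spikes and -0.63 with cyclic loess. It kept -0.38 but missed the threshold with the 5 SD limit (adjusted p = 0.0515), a trended prior (0.0708) and a robust prior (0.0522) in limma. The difference between miR-26a-5p and miR-26b-5p was -0.12 with cyclic loess. Leaving out each array gave -0.38 to 0.30 for miR-26a-5p (0.30 without LSEC array 2 and 0.02 without hepatocyte array 1), -0.64 to -0.45 for miR-26b-5p, -0.07 to 0.02 for miR-26a-3p, -0.29 to -0.08 for miR-26b-3p, -0.36 to 0.32 for the arm difference of miR-26a (0.32 without LSEC array 2, 0.09 without hepatocyte array 1), -0.46 to -0.16 for that of miR-26b, 0.18 to 0.94 for miR-26a-5p minus miR-26b-5p, 0 to 1 probes called higher in hepatocytes and 0 higher in LSECs. With either LSEC array left out no family probe was called, and fewer miRNAs were called in total. Over all miRNAs 241 were called, against 375 with the median, 485 with the 75th percentile, 454 with the spikes, 109 without LSEC array 1 and 116 without LSEC array 2. Of the other families, let-7g-5p, miR-29c-3p and miR-30b-5p turned to 0.95, 0.99 and 0.95 without scaling, 0.43, 0.47 and 0.40 with the median, 1.82, 1.86 and 1.85 with the spikes, and 0.64, 0.68 and 0.59 in the authors' values; miR-29c-3p was 0.01 with the 75th percentile, and with cyclic loess miR-30c-5p was -0.04 and miR-29a-3p -0.36. The labels give both cell types replicates 1 and 2 without saying that a number pairs samples, and deviations of same-numbered arrays correlated with r = 0.0345 across miRNAs. With the replicate number as a block the call of miR-26b-5p stood (-0.54, adjusted p = 0.0218 in limma), that of the miR-26b arm difference too (adjusted p = 0.0244), no other family call changed, and 198 miRNAs were called.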

Other observations

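The LSEC arrays differed from each other in miR-26a-5p more than in most miRNAs. Their normalized log2 values lay 0.64 apart, against a median gap of 0.04 over the 652 miRNAs tested, and 4 miRNAs had a larger gap, led by miR-335 (1.01), miR-125a-5p (0.67) and let-7i-5p (0.65), which were chosen after their values were seen. In the authors' values the ratio of LSEC array 1 to array 2 was 1.71 for miR-26a-5p and 0.958 for miR-26b-5p. Of the 166 miRNAs listed at 100 or more on both LSEC arrays, 6 had a larger gap than miR-26a-5p, and the median gap was 1.10-fold. At the miR-26a-5p spot the deposited background column, which follows the spot's brightness, had a ratio of 1.11 between the same arrays, while the spot medians had a ratio of 1.54. On this array design miR-26a-5p has 1 spot, so no second spot bears on the gap.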
